A study of Mus musculus with 6 samples.

Results

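The 6 mouse actin genes Actb, Actg1, Acta1, Acta2, Actg2 and Actc1 were examined in induced pluripotent stem cells (iPSCs), somatic cells turned back by reprogramming factors into a state close to that of embryonic stem cells. The genes were taken from the count table by name, and all 6 were found among its 24421 gene entries. Of the 6, 5 passed the filter on low counts, as did 14778 genes in all, and Actc1 did not. Bulk RNA sequencing covered 3 libraries of iPSCs with the genotype SRFΔ/Δ, which have lost the serum response factor gene (SRF KO), and 3 of iPSCs with the genotype SRFf/f, which carry the floxed but undeleted gene (WT). Both kinds of cell were grown in medium with serum. The labels do not say whether the 3 replicates within a group came from different clones or from cultures of a single clone, nor whether feeder cells were present. The p-values therefore measure the spread between these libraries, which may be partly technical.

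Actins are the subunits of the thin filaments of the cytoskeleton and of muscle. Actb and Actg1 encode the β- and γ-cytoplasmic actins that almost every cell makes, Acta2 and Actg2 the α- and γ-actins of smooth muscle, Acta1 the α-actin of skeletal muscle and Actc1 that of heart muscle. Serum response factor (SRF) binds a short sequence called the CArG box and is known to act on actin genes together with the cofactors of the MRTF family. These cofactors are held back by free actin monomers, so that actin genes are both targets and regulators of the pathway.

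The 6 genes lie on 6 chromosomes and are close relatives in their coding parts. In the assembly GRCm38 with the GENCODE M21 annotation, Actb (ENSMUSG00000029580.14) lies on chr5:142903115-142906754, Actg1 (ENSMUSG00000062825.15) on chr11:120345690-120348542 and Acta1 (ENSMUSG00000031972.5) on chr8:123891769-123894751. Acta2 (ENSMUSG00000035783.9) lies on chr19:34241090-34255590, Actg2 (ENSMUSG00000059430.14) on chr6:83512905-83536265 and Actc1 (ENSMUSG00000068614.7) on chr2:114047282-114053548. All 6 are on the minus strand. Their coding sequences were identical at between 81.5% and 88.7% of aligned bases, the latter for Actb and Actg1. The stretch below shows how near the genes are to each other, and so what the counting had to tell apart. It gives coding bases 31 to 90 of Actb and the bases aligned to them in the other genes, 5′ to 3′, with bases that differ from Actb in capitals.
Actb: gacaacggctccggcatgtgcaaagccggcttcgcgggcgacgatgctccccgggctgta
Actg1: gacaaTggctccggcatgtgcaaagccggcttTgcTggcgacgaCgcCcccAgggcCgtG
Acta1: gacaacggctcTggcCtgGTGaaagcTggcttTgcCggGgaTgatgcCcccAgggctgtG
Acta2: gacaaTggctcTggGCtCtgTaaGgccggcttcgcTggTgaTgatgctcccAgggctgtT
Actg2: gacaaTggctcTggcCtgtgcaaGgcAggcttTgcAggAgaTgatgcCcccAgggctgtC
Actc1: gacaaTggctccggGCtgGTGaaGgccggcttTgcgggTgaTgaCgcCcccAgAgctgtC
Over these 60 bases Actg1 differed from Actb at 8 positions, Acta2 and Actg2 at 12 each, Acta1 at 13 and Actc1 at 15. The reads were 150 bases long. No window of 150 bases in the main transcripts of Actb, Acta1, Acta2, Actg2 or Actc1 was found whole in an annotated transcript of any other gene. In Actg1, 43.5% of such windows were also found in transcripts of the processed pseudogenes Gm12715, Gm16385 or Gm8399, none of which has an entry in the count table. With windows of 75 bases the share was 54.5% in Actg1, 2.6% in Actb, 0.437% in Acta1 and 0% in Acta2, Actg2 and Actc1. How the authors' counting treated reads that fit several places is not given in the sources used here. In this respect the level of Actg1 is less certain than those of the other members. Actg1 overlaps the miRNA genes Gm23419 and Mir6935 on the same strand, the latter treated below. Some 75-base windows of Actg1 were found whole in Gm23419. Acta1 overlaps Gm20388 and Actc1 overlaps A530058N18Rik, both on the opposite strand, and the strand setting of the counting is not given either.

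The sequences before the start sites were searched for the CArG box, since it is the known binding sequence of SRF. RefSeq promoter sequences (GRCm38.p6) were matched for 4 of the 6 genes, namely Actg1, Acta1, Acta2 and Actc1. A box was called exact when the letters C and C were followed by 6 bases that are all A or T and then by G and G, which reads alike on both strands. Boxes in which 1 of those 6 bases was C or G were kept as near matches. All 10 boxes found in the 250 bases before the 4 starts are shown, each with 10 bases on either side, with the box in capitals and the distance from its first base to the start.
Actg1, chr11:120348566-120348595, minus strand, exact, 90 bases before the start: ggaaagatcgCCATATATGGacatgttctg
Acta1, chr8:123894829-123894858, minus strand, exact, 73 bases before the start: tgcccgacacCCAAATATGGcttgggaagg
Acta1, chr8:123894910-123894939, minus strand, near match, 154 bases before the start: ccagtcctctCCTTCTTTGGtcagtgcagg
Acta1, chr8:123894961-123894990, minus strand, near match, 205 bases before the start: gggatactctCCATATACGGcctggtccgg
Acta2, chr19:34255388-34255417, minus strand, near match, 34 bases before the start: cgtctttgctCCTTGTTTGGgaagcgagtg
Acta2, chr19:34255438-34255467, minus strand, near match, 84 bases before the start: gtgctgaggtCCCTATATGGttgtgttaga
Actc1, chr2:114052903-114052932, minus strand, exact, 47 bases before the start: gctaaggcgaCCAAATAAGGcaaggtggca
Actc1, chr2:114052943-114052972, minus strand, near match, 87 bases before the start: gcccttggctCCAAGAATGGcctcagcggt
Actc1, chr2:114052994-114053023, minus strand, near match, 138 bases before the start: ccctccccttCCTTACATGGtctgggagcc
Actc1, chr2:114053031-114053060, minus strand, near match, 175 bases before the start: ctccctagctCCCTATATGGccattgctct
An exact box was present in Actg1, Acta1 and Actc1, against 1.47% of 32851 promoter windows of the same length over all genes. All 4 had an exact or a near match, against 8.59% of those windows. Start sites differ between annotations. GENCODE begins the Actc1 gene 673 bases and the Acta2 gene 217 bases further upstream than RefSeq, so that all boxes shown for these genes lie inside the gene by that annotation. A match describes the sequence and does not show that SRF binds it. As given below, of the genes with an exact box Actg1 fell, Acta1 rose at a low level and Actc1 was hardly detected, while Acta2, with near matches only, rose.

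Total counts per library were between 26321602 and 36680156. Srf itself, the deleted gene, was counted 113, 84 and 131 times in SRF KO against 1326, 765 and 1066 times in WT, which left 11.5% of its WT level (log2 fold change -3.12, SE 0.13, adjusted p 8.1e-09). Adjusted p-values of single genes here come from the quasi-likelihood test of edgeR, adjusted by the Benjamini-Hochberg method over all 15611 entries tested, with a threshold of 0.05. At that threshold 41.1% of entries were called, 20.4% higher and 20.7% lower in SRF KO, and among genes alone 42.4% were called. In 51.4% of entries there was no overlap between the values of the SRF KO and the WT libraries. Levels are in CPM, the count of a gene as a proportion of its library on the usual CPM scale, with library sizes adjusted by the trimmed mean of M values (TMM), and are divided by the transcript length in kb where genes are compared with each other. All 16 pluripotent cell markers were measured, among them Pou5f1, with 773 ± 11.3 CPM against 818 ± 52.4 CPM in WT (SD, n = 3). Pou5f1 was not called, but 7 of the 16 were called lower and 2 higher, as given below.

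Both cytoplasmic actins fell in SRF KO, and the 3 muscle actins that could be tested rose. Actg1 fell to 29.6% and Actb to 41.7% of the WT level, while Acta2 was 2.34-fold, Actg2 2.51-fold and Acta1 1.75-fold higher. Of the 6 genes, 2 were thus called lower and 3 higher, and in all 5 the values of the groups did not overlap, against 20.7% of all entries called lower, 20.4% called higher and 51.4% without overlap. In bulk RNA, a change in the share of cells that make a transcript and a change in the amount per cell cannot be told apart.

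**Figure D1:**
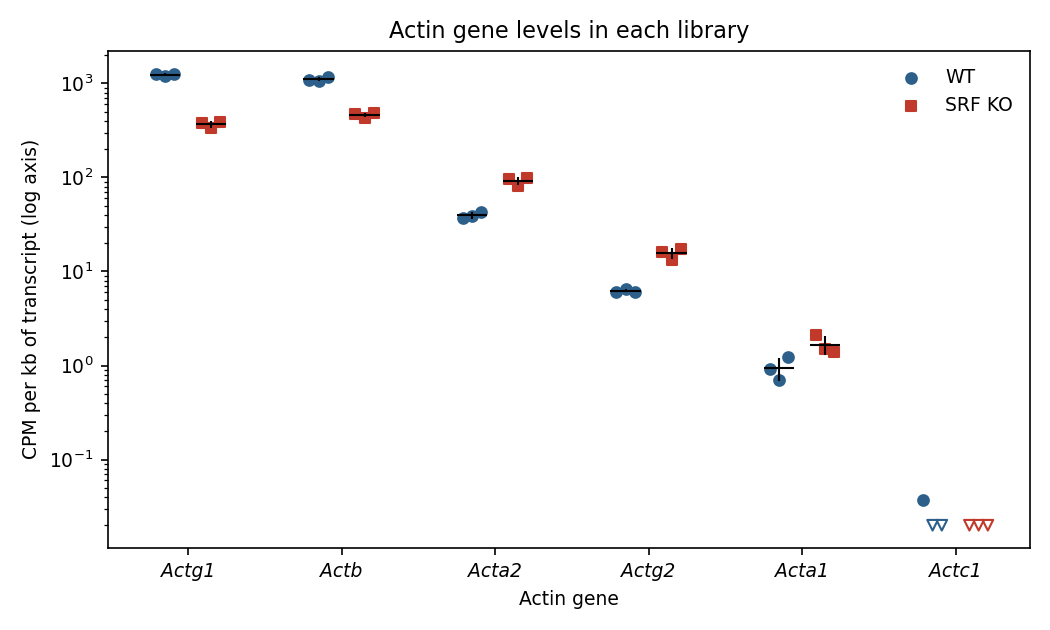
Level of each actin gene (CPM per kb of transcript, log axis) in the 3 WT libraries (blue circles) and the 3 SRF KO libraries (red squares), with the mean and SD as black lines. Open triangles mark libraries with 0 counts of Actc1, drawn at the bottom because a log axis has no 0. The SRF KO points lie below the WT points for Actg1 and Actb and above them for Acta2, Actg2 and Acta1.

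Actg1, the γ-cytoplasmic actin, had 733, 657 and 766 CPM in SRF KO replicates 1 to 3 and 2451, 2340 and 2484 CPM in WT replicates 1 to 3. All SRF KO libraries lay far below all WT libraries, and the spread within each group was small beside the gap. The means of 719 ± 56.1 and 2425 ± 75.2 CPM (SD, n = 3) were 3.37-fold apart. The log2 fold change was -1.75, with an SE of 0.06 and an adjusted p of 2.42e-09 by edgeR. Only 0.352% of the 14778 genes tested had a lower fold change.

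Actb, the β-cytoplasmic actin that is often used as a loading and normalization control, had 914, 834 and 925 CPM in SRF KO and 2108, 2047 and 2250 CPM in WT. The groups were again well apart. The means were 891 ± 49.99 and 2135 ± 104 CPM (SD, n = 3), a 2.40-fold fall. On the log2 scale this was -1.26, with an SE of 0.06 and an adjusted p of 2.33e-08 by edgeR. Fold changes lower than this were found for 0.819% of genes tested.

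The ratio of the cytoplasmic actins to each other differed between the groups. In WT cells Actg1 had the highest counted level, with 1242 ± 38.5 CPM per kb against 1112 ± 54.2 for Actb. In SRF KO cells Actb had the higher counted level, with 464 ± 26.03 CPM per kb against 368 ± 28.7 for Actg1 (SD, n = 3). The ratio of Actg1 to Actb per kb was 1.14, 1.13 and 1.09 in WT replicates 1 to 3 and 0.788, 0.775 and 0.815 in the SRF KO replicates. The ratio was above 1 in every WT library and below 1 in every SRF KO library. Which of the genes is the more abundant within a group is not settled by this, since the counting of Actg1 reads that also fit pseudogenes is unknown. The log2 ratio of their counts, which needs no scaling of libraries, was 0.18 ± 0.038 in WT and -0.31 ± 0.037 in SRF KO (SD, n = 3). The exact two-sided permutation test of this ratio gave p = 0.1, the smallest that 3 libraries against 3 allow, and 0.112 after Benjamini-Hochberg adjustment over 9 such tests of shares and ratios. With all libraries scaled by their Actb counts, an alternative added after seeing the data, edgeR gave Actg1 a log2 fold change of -0.50 (adjusted p 4.28e-05), which treats the Actb count as free of error.

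The loss stood out among abundant transcripts. Ranked by CPM per kb over 23376 genes, the WT mean of Actg1 was at place 29 and that of Actb at place 36, while in SRF KO they were at places 141 and 117. Among the 100 genes with the highest WT level per kb, Actg1 and Actb had the lowest fold changes, and they were the 2 genes below -1 on the log2 scale. The next, Aldoa, an enzyme of glycolysis, was at -0.53, and the median of the 100 genes was -0.14. Measured as the difference of the means in CPM per kb, Actg1 had the largest loss of all ranked genes (-874) and Actb (-648) came behind Dppa5a (-671), a pluripotency-associated gene.

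**Figure D2:**
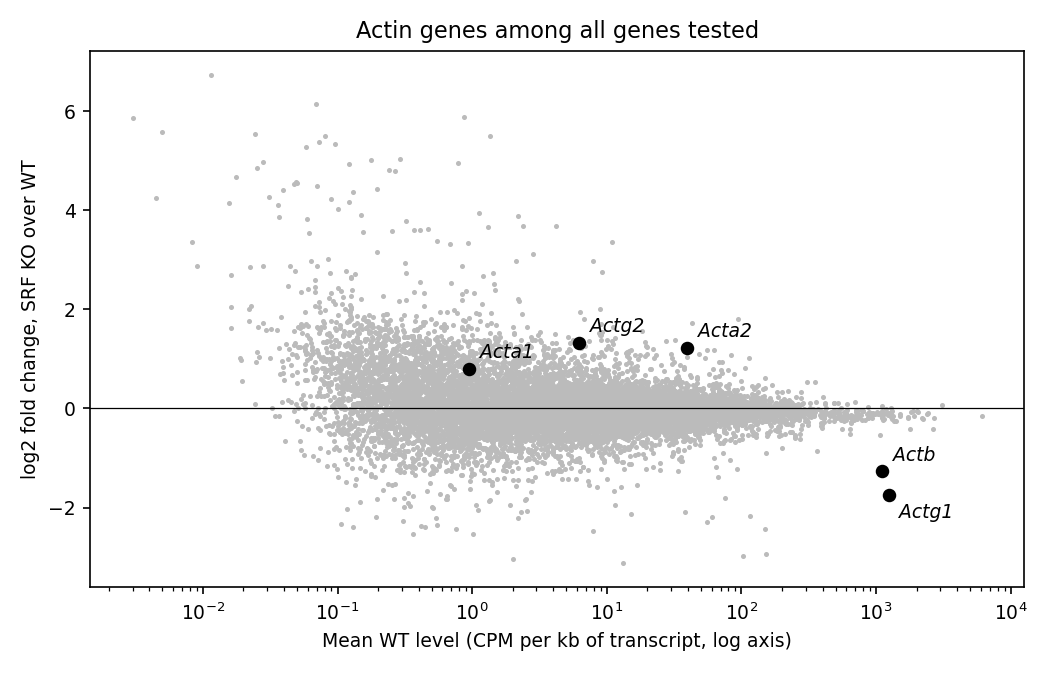
Log2 fold change (SRF KO over WT) against the mean WT level in CPM per kb of transcript (log axis) for 14241 of the 14778 genes tested, each a grey point. The 537 genes without a transcript length or with a WT mean of 0 are not drawn. Actg1 (-1.75) and Actb (-1.26) lie apart below the narrow band of abundant genes, and Acta2 (1.23), Actg2 (1.33) and Acta1 (0.80) lie above 0.

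Acta2, the smooth muscle α-actin, is also made by activated fibroblasts. It had 196, 166 and 202 CPM in SRF KO replicates 1 to 3 and 74.6, 78.8 and 88.1 CPM in WT. Each SRF KO library was above each WT library, with replicate 2 the lowest of the SRF KO libraries. The means were 188 ± 19.5 and 80.5 ± 6.93 CPM (SD, n = 3). This rise of 1.23 on the log2 scale had an SE of 0.08 and an adjusted p of 4.72e-07 by edgeR. Its rank per kb moved from place 1896 in WT to place 724 in SRF KO.

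Actg2, the smooth muscle γ-actin, had 21.6, 17.7 and 23.0 CPM in SRF KO and 8.06, 8.67 and 8.16 CPM in WT. The order of the SRF KO libraries was that of Acta2, and also of Actb and Actg1, again with replicate 2 lowest. The means were 20.8 ± 2.77 and 8.30 ± 0.326 CPM (SD, n = 3), and the rise of 1.33 on the log2 scale had an SE of 0.10 and an adjusted p of 1.64e-06 by edgeR. Acta2 exceeded Actg2 5.95 ± 0.196-fold per kb in SRF KO and 6.36 ± 0.62-fold in WT. The log2 ratio of Actg2 to Acta2 overlapped between the groups (exact two-sided permutation test, p = 0.4, adjusted 0.4). The difference of 0.09 in this log2 ratio was smaller than its SD in WT, 0.137.

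Acta1, the skeletal muscle α-actin, was near the lower limit of these libraries. It had 82, 58 and 58 counts in SRF KO and 48, 26 and 51 in WT, so that counting error alone was between 11.0% and 19.6% of each value. In CPM these were 3.05, 2.19 and 2.01 against 1.325, 1.01 and 1.78, and the lowest SRF KO library lay just above the highest WT library. The means were 2.42 ± 0.556 and 1.37 ± 0.386 CPM (SD, n = 3). The rise of 0.80 on the log2 scale had an SE of 0.23, larger than for the other members, and an adjusted p of 0.0139 by edgeR. Without SRF KO replicate 1 the call was lost, with a log2 fold change of 0.60 and an adjusted p of 0.0738. Actc1, the heart muscle α-actin, had 2 counts in WT replicate 1 and 0 in the other 5 libraries. Where none was counted, a true level of as many as 3 counts, or 0.104 to 0.117 CPM in those 5 libraries, remains possible, so that no difference in Actc1 was detectable at this depth.

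The levels per kb kept wide steps between the other members. Below Actg1 and Actb, SRF KO cells had Acta2 at 92.5 ± 9.60, Actg2 at 15.6 ± 2.08 and Acta1 at 1.67 ± 0.385 CPM per kb. In WT these were 39.5 ± 3.40, 6.22 ± 0.244 and 0.948 ± 0.267 CPM per kb (SD, n = 3). No neighbours in either order overlapped between libraries of the same group. The closest were Actg1 and Actb, in both groups, with the limit on Actg1 given above.

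Added together, the 6 genes had 1868, 1676 and 1919 CPM in the SRF KO libraries and 4643, 4476 and 4831 CPM in the WT libraries. The summed actin level thus averaged 1821 ± 128 against 4650 ± 178 CPM (SD, n = 3), and 39.2% of the WT sum was left in SRF KO (log2 ratio -1.35). As a share of all gene counts, actin went from 0.484% ± 0.022 in WT to 0.195% ± 0.0149 in SRF KO. The sum is given without a p-value because the members were chosen with results of these data known. Actb and Actg1 together lost 2950 CPM, of which Actg1 made up 57.8%. The muscle actins together gained 121 CPM, 88.9% of it Acta2, which equals 4.11% of that loss.

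The make-up of the actin transcripts differed between the groups too. Shares are of the summed level per kb. Actg1 made up 51.8% ± 0.701 of actin in WT and 39.1% ± 0.42 in SRF KO, while Actb went from 46.3% ± 0.605 to 49.3% ± 0.767 (SD, n = 3). Actb thus held a slightly larger share of actin in SRF KO although its level had fallen. Acta2 had shares of 1.53%, 1.68% and 1.74% in WT replicates 1 to 3 and 9.98%, 9.40% and 10.01% in the SRF KO replicates. Actg2 went from 0.260% ± 0.0191 to 1.65% ± 0.108 and Acta1 from 0.0393% ± 0.00956 to 0.178% ± 0.0393 (SD, n = 3). The 4 muscle actins together made up 1.95% ± 0.11 in WT and 11.6% ± 0.451 in SRF KO. For each of these 5 genes the shares did not overlap between the groups (exact two-sided permutation test, p = 0.1 each, the smallest possible, adjusted 0.112). Shares of 1 library sum to 100, so these are not independent results. Wilson 95% intervals of the shares of counts in single libraries, which cover counting error only, were at most 0.465 percentage points to either side.

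**Figure D3:**
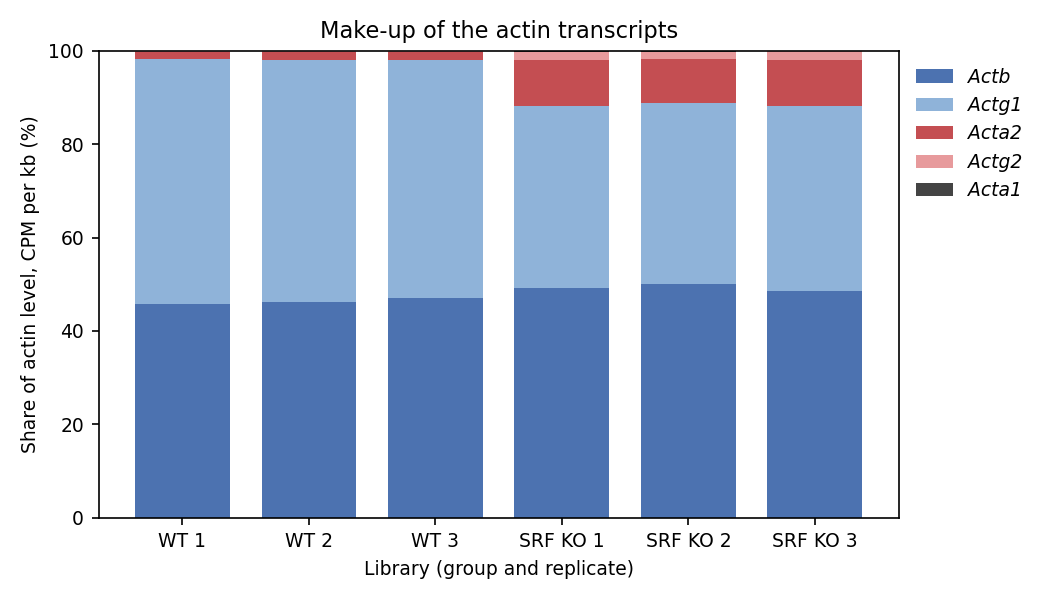
Share (%) of each actin gene in the summed actin level (CPM per kb of transcript) in each library, as stacked bars. The muscle actins together take up 1.82% to 2.03% of the bar in the WT libraries and 11.1% to 11.9% in the SRF KO libraries, and Actg1 is narrower in SRF KO. Acta1 is too small to see and Actc1 is left out.

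The count table also has an entry inside Actg1. Mir6935, a miRNA gene, spans 64 bases (chr11:120347350-120347413, GRCm38) within intron 3 of Actg1, on the same strand and directly beside the next exon. Reads of the unspliced Actg1 transcript and of the miRNA precursor cannot be told apart at this entry, which was chosen after its values were seen. It had 50, 45 and 51 counts in SRF KO and 346, 229 and 290 in WT. The mean was 9.52 ± 0.604 CPM in WT against 1.77 ± 0.0798 CPM (SD, n = 3). The log2 fold change was -2.42, with an SE of 0.12 and an adjusted p of 2.82e-08 by edgeR, and lay between -2.46 and -2.38 when each library was left out in turn. The Mir6935 entry, which is counted apart from Actg1, equalled 0.392% ± 0.0135 of the Actg1 count in WT and 0.248% ± 0.0153 in SRF KO (SD, n = 3). The groups did not overlap in this ratio either, by the exact two-sided permutation test of its log2 value (p = 0.1, the smallest possible, adjusted 0.112). The ratio of the intronic entry to the Actg1 entry was thus lower in each SRF KO library than in any WT library.

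Genes with the most similar pattern were sought for each tested member among 9081 genes with a mean of at least 10 CPM. Likeness was the Euclidean distance between log2 CPM profiles over the 6 libraries, each centred on its own WT mean, and the profiles mainly reflect the difference between the groups. Actb was nearest to Elf3 (distance 0.0967), Cds1 (0.213) and Col9a2 (0.22), and Actg1 to Ifitm1 (0.127), Lincenc1 (0.271) and Mok (0.334). The median distances to all candidates were 2.16 and 3.01. Acta2 was nearest to the TGF-β receptor gene Tgfbr2 (0.0832), the surface marker Thy1 (0.0889) and Mical2 (0.125), an enzyme that oxidises actin. Actg2 was nearest to Tgfbr2 (0.181), Pcdh7 (0.203) and Thbs2 (0.206). Acta1 was nearest to Erf (0.345), Furin (0.346) and Mfsd5 (0.362). The median distances were 2.18 for Acta2, 2.26 for Actg2 and 1.31 for Acta1. At the low level of Acta1, the 0.5 CPM added before log2 narrows its difference between the groups. Its nearest genes are therefore less certain. The closest members to each other were Acta2 and Actg2, at a distance of 0.217, against 0.862 for Actb and Actg1.

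Because muscle actins also mark other cells, lists of marker genes were examined beside them. Of 20 fibroblast markers, 18 were higher in SRF KO, against 20.4% of all entries, and none was lower. Their median was 1.10 on the log2 scale, against -0.01 for all genes tested. Their summed level was between 3693 and 4285 CPM in SRF KO and between 2744 and 2974 CPM in WT. Fbn1, Prrx1 and Col5a2 rose by 1.38, 1.13 and 1.22 on the log2 scale. The fold change of Acta2 lay within the range of this list, 0.11 to 1.49, with 5 of the 20 genes above it, and that of Actg2 had 3 above it. No fibroblast marker was at 0 in all libraries, and the part of such cells in the rise of Acta2 and Actg2 was not tested.

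Of 12 smooth muscle markers, 11 were tested. Of these, 8 were higher, against 20.4% of all entries, and none lower, with a median of 0.82. When WT replicate 2 was dropped, 1 was lower. Their sums were between 466 and 503 CPM in SRF KO and between 283 and 293 CPM in WT. Tagln, Cald1 and Mylk rose by 1.02, 0.89 and 1.58 on the log2 scale. Myocd, the cofactor that defines smooth and heart muscle, had at most 6 counts in a library and was too low to test. The part of smooth muscle-like cells was not tested.

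Markers of striated muscle were set beside Acta1 and Actc1. Of 14 skeletal muscle markers, 3 passed the filter and 2 were called, against 42.4% of all genes. These were Mylpf and Myh3, which fell by 0.54 and 0.69 on the log2 scale. The sum over the list, nearly all Mylpf, was between 109 and 113 CPM in SRF KO and between 150 and 165 CPM in WT. The myogenic factor Myod1 had at most 3 counts in a library. The part of striated muscle cells in the value of Acta1 was not tested. Of 12 heart muscle markers, 7 were tested and 4 were called, against 42.4% of all genes. Myl4 and Myh6 fell by 0.81 and 0.48, and Nppb and Ryr2 rose by 0.70 and 0.40 on the log2 scale. Heart marker sums were between 19.7 and 21.3 CPM in SRF KO and between 20.7 and 21.7 CPM in WT.

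Of the 11 lists examined, the endoderm markers had the largest median. All 16 tested of 17 were higher, against 20.4% of all entries. The median was 3.64 on the log2 scale, also with Ttr, which had 0 counts in WT, set to its bound. Cubn, Dab2 and Lama1 rose by 5.88, 3.68 and 2.76 on the log2 scale, and the sum went from between 521 and 548 CPM in WT to between 2817 and 2971 CPM in SRF KO. Of the 16 pluripotent cell markers, 7 were lower and 2 higher, against 20.7% and 20.4% of all entries, with a median of -0.16. A single marker was higher when SRF KO replicate 1 or 2 or WT replicate 1 or 3 was dropped. Nanog, Tfcp2l1 and Klf4 fell by 0.79, 0.70 and 0.52, and Klf5 and Zfp42 rose by 0.33 and 0.17 on the log2 scale. Pluripotent sums were between 7112 and 7226 CPM in SRF KO and between 8348 and 8935 CPM in WT. The part of a changed mixture of cells in the actin values was not tested.

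Next came the genes whose products handle actin. Of 16 genes for monomer binding and filament turnover, 4 were lower and 2 higher, and the list's median was 0.01 on the log2 scale. The 6 of 16 called stand beside 42.4% called among all genes, so the list as a whole was not called more often than other genes. Wdr1 and Twf2, which help take filaments apart and bind monomers, fell by 0.77 and 0.56, and the cofilin family genes Dstn and Cfl1 by 0.21 and 0.17. Tmsb4x, whose product thymosin β4 holds actin monomers, rose from 269 ± 24.3 to 391 ± 14.3 CPM (SD, n = 3, log2 fold change 0.54, edgeR adjusted p 4.95e-05). Gsn, encoding the severing protein gelsolin, rose by 1.06 on the log2 scale. The profilin gene Pfn1 had 451 ± 22.6 against 420 ± 45.3 CPM in WT (SD, n = 3), and 10 genes of the list were not called. Without WT replicate 2, 4 genes were called higher, and without SRF KO replicate 1, 2 were called lower.

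Products of a further list fold and finish actin. Of 17 listed genes 16 were in the table and tested, 6 were lower and none higher, with a median of -0.12. These were the chaperonin subunit genes Cct5 and Cct7 (-0.13 and -0.15), the prefoldin subunit genes Pfdn1 and Vbp1 (-0.22 and -0.32), Pdcl3 (-0.31), which assists the chaperonin, and Setd3 (-0.17), the enzyme that methylates a histidine of actin. Of 10 tested actin-related genes, which share the actin fold but build other complexes, 4 were lower and none higher, with a median of -0.14. They were Actr2 and Actr3 (-0.16 and -0.15), the core of the complex that branches filaments, Actr3b (-0.37) and Actr6 (-0.26). The other 10 listed were too low to test, and Actbl2, a further β-actin-like gene, had 0 counts in all 6 libraries. The 6 of 16 and 4 of 10 called were all lower, against 20.7% of all entries called lower and 42.4% of genes called in either direction. These shifts were small and depended on the scaling. With library totals in place of TMM, 3 folding genes and 1 actin-related gene were lower. Leaving out SRF KO replicate 1 left 3 folding genes and 1 actin-related gene lower, and leaving out WT replicate 1 left 3 and 2. When SRF KO replicate 3 was dropped, 1 actin-related gene was left. Other settings raised the counts, to 7 folding and 6 actin-related genes without WT replicate 2, and to 12 and 5 with a replicate block. Without WT replicate 3, 9 folding genes were lower.

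Among the regulators, Srf fell as given above. The MRTF genes, listed under their older names Mkl1 and Mkl2, were at 0.19 and 0.05 on the log2 scale, with adjusted p-values of 0.0898 and 0.535 by edgeR, and were not called. Elk1 and Elk3, cofactors of the TCF family, changed by -0.30 and 0.94, both past the threshold. Against 42.4% called among all genes, 3 of the 6 tested on this list were called, 2 lower, Srf among them, and 1 higher. A second was higher without SRF KO replicate 2, without WT replicate 1 and with library totals in place of TMM.

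**Figure D4:**
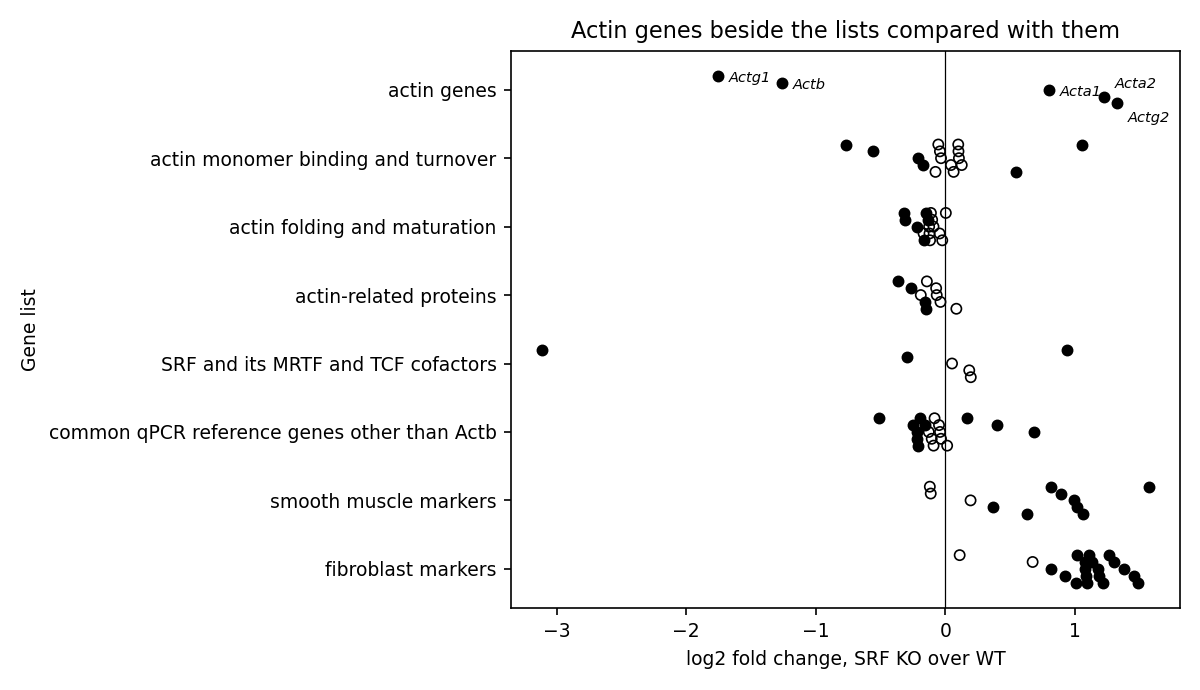
Log2 fold change (SRF KO over WT) of each tested gene of the actin family and of 7 lists. Filled circles passed the threshold of 0.05 on edgeR's adjusted p and open circles did not, and the vertical offset within a row only separates the points. Actg1 and Actb lie far left of every gene of the folding, actin-related and reference lists, and the muscle actins lie in the range of the smooth muscle and fibroblast markers.

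Since Actb is a common reference for quantitative PCR, it was set beside 18 other reference genes. Of these, 3 were higher and 7 lower in SRF KO, against 20.4% and 20.7% of all entries. The median was -0.10 on the log2 scale, and all 18 lay between -0.51 and 0.68, against -1.26 for Actb. Among those called, the changes were small for Gapdh (-0.21), Tubb5 (-0.19), Eef1a1 (-0.16), Rps18 (-0.22), Tfrc (-0.22) and Polr2a (0.17), and larger for Pgk1 (-0.51), Gusb (0.40) and B2m (0.68). Rplp0 (0.01), Ywhaz (-0.03), Hprt (-0.04), Sdha (-0.05), Tbp (-0.08), Ppia (-0.09) and Rpl13a (-0.10) did not pass the threshold. The 7 lower calls became 3 when SRF KO replicate 1 or 3 was dropped, and 4 when SRF KO replicate 2 or WT replicate 1 was dropped or library totals replaced TMM. They became 10 when WT replicate 2 was dropped and 9 with a replicate block.

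Scaling the libraries by Actb in place of TMM, an alternative added after seeing the data, moved the median log2 fold change of all 14778 genes from -0.01 to 1.25. Under TMM 3132 genes were called higher and 3141 lower, and under Actb scaling 14291 higher and 48 lower. All 18 reference genes were then called higher. This scaling raises every log2 fold change by about the size of the fall of Actb. The counts under it restate that fall and are not a separate result. On that scale Acta2 was at 2.48 and Actg2 at 2.58, and Actg1 was among the few genes with a negative value, at -0.50.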

How the data were processed

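Total RNA of 6 iPSC libraries was taken with TRIzol and sequenced as 150 bp pairs, and the authors removed adaptor, low-quality and empty reads, per the labels' protocols. The authors deposited 1 table of raw counts, without normalization, for 24421 genes and 1146 transposable element subfamilies. The submitters' processing notes name the build mm10 (GRCm38) and the tool DESeq2. The aligner, the counting program and its strand setting are not given in the sources used here.

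A single fit of all entries was made with edgeR 4.0.16 in R 4.3.3 (filterByExpr with a minimum count of 10, TMM, quasi-likelihood test, SRF KO against WT, no other term), and SE is the absolute log2 fold change divided by the square root of F. Transcript lengths, gene positions and coding sequences came from GENCODE M21, using the longest principal transcript per gene. Replicate libraries differed beyond counting noise, with a chi-square per degree of freedom between 1.79 and 14.6. The largest values, 12.2 and 14.6, were those of WT replicate 2 with WT replicates 1 and 3. WT replicates 1 and 3 had 3.64, and pairs of SRF KO libraries had at most 4.88. DESeq2 1.42.0, other scalings, filters and thresholds, a replicate block and leaving out each library were alternatives. The code was tested on simulated data.

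The members and the lists, typed from general knowledge, were chosen with earlier results of these data known. Named genes are the members, Srf, Actbl2, the 3 nearest profiles per member (0.5 CPM added before log2), the called genes of a list (the 3 with the smallest p per direction where over 6 were called) and the reference genes, 2 of which are counted but not reported here by name. Dppa5a, Aldoa, Mir6935, Fn1, Pfn1, Mkl1, Mkl2, Myocd, Myod1, Pou5f1 and Ttr were added after their values were seen.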

Additional observations from a re-analysis of the deposited data

How the results depend on the processing

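Actb, Actg1, Acta2 and Actg2 kept their direction and their call in every fit run for them, except that scaling by Actb sets Actb itself to 0. The sum of the 6 genes kept its direction in every setting run for it. Leaving out 1 library gave between -1.29 and -1.21 for Actb, -1.80 and -1.69 for Actg1, 1.17 and 1.32 for Acta2, 1.25 and 1.44 for Actg2, and -1.39 and -1.29 for the summed level. Acta1 was between 0.60 (without SRF KO replicate 1, call lost) and 1.01, and at 0.80 it also missed an adjusted p of 0.01 and an absolute log2 fold change of 1. The pseudogene alternative for the sum was not run, since no entry of the table is named as an actin pseudogene.

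List counts moved more, and the number of all genes called moved too. That number was 6273 in the main fit, 6098 with library totals and 4212 at an adjusted p of 0.01. It was 1077 at an absolute log2 fold change of 1, 7512 with a replicate block and between 4731 and 7461 with 1 library left out. With library totals in place of TMM, 3 folding, 1 actin-related and 4 reference genes were lower and 2 cofactor genes higher. At an adjusted p of 0.01, 2 turnover, 3 folding, 1 actin-related and 3 reference genes were lower. At an absolute log2 fold change of 1, 1 turnover gene was higher and 1 cofactor gene (Srf) lower, with 0 in every other direction of these 5 lists. Leaving out 1 library gave 2 to 4 turnover genes higher and 2 to 4 lower, 3 to 9 folding, 1 to 6 actin-related and 3 to 10 reference genes lower, and 1 to 2 cofactor genes higher. Scaling by Actb gave 18 reference genes higher and 0 lower, and 14291 genes higher and 48 lower, which restates the fall of Actb itself. The cause of the other moves was not tested.

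Libraries with the same replicate number were not taken as pairs. Their deviations from the group means correlated at 0.047, 0.279 and 0.148 for numbers 1, 2 and 3, and not every library correlated best with its own number. With a replicate block, Actb was at -1.26, Actg1 at -1.76, Acta1 at 0.82, Acta2 at 1.23 and Actg2 at 1.33, and 12 folding genes were lower and 3 cofactor genes higher.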
